A study of Mus musculus with 60 samples.

Results

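The comparison described here is that of tumor-bearing with vehicle injected mice in brain stem, adjusted for the time of day of collection. Its members were the samples whose column names mark them as brain stem and whose group number gives tumor status and phase, 19 of the 56 samples with values in the series, which lists 60. All mice were female Balb/C, 13 weeks old at collection, and kept on a 14:10 h light:dark cycle. Tumor-bearing mice had received 67NR cells, a non-metastatic line from a single mouse mammary carcinoma, in inguinal mammary glands on both sides. Vehicle injected mice had received the culture medium DMEM. Tissue was collected 25 days later, after perfusion with saline, at mid-dark (ZT19, hours after lights on) or mid-light (ZT7). Mid-dark gave 5 tumor-bearing and 4 vehicle injected mice and mid-light gave 5 of each, so 10 tumor-bearing mice were set against 9 vehicle injected mice. The brain stem of 1 further vehicle injected mouse at mid-dark (mouse 8) has no values and was not analysed here. Each sample is the brain stem of a different mouse, and mice are the replicates.

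The assay was nanoString's nCounter Mouse Neuroinflammation Panel, in which a barcoded probe pair binds each transcript and is counted. The values are normalized log2 expression levels of 770 genes, and a log2 FC here is the mean of tumor-bearing mice minus that of vehicle injected mice at equal phase, so that 1 unit is a 2-fold difference. The panel reports on microglia, astrocytes, oligodendrocytes, neurons, vessels and blood leukocytes. In systemic inflammation, cytokines in the circulation act on receptors of brain endothelium, perivascular cells and glia, and these cells then make prostaglandins, acute-phase proteins and further mediators. The brain stem holds the nuclei that receive vagal input from the viscera and the area postrema, a site with permeable capillaries.

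The region labels were checked against region genes. Slc17a6, the vesicular glutamate transporter of subcortical neurons, lay between 12.46 and 13.04 in brain stem and between 7.20 and 10.06 in hippocampus. Tbr1, a transcription factor of cortical and hippocampal neurons, lay between 2.87 and 5.42 in brain stem and between 7.63 and 8.94 in hippocampus. The myelin gene Mog was at 11.12 to 11.73 in brain stem, above all samples of hippocampus (up to 10.79) and of hypothalamus (up to 10.63). Correlations between brain stem samples were 0.981 to 0.994 over the genes, and no sample stood apart or was a copy of another. The Y-linked genes Uty and Kdm5d, absent from the genome of female mice, read 4.33 to 5.09 and 3.62 to 4.75 in brain stem, without their own target. Whether their probes bind other transcripts was not tested. The median of Uty was 4.88 in brain stem, 3.43 in hippocampus and 3.88 in hypothalamus. In bulk tissue, a change in the number of cells of a type and a change in the RNA per cell cannot be told apart.

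Of 769 genes tested, 8 differed between tumor-bearing and vehicle injected mice at an adjusted p under 0.05, all 8 higher in tumor-bearing mice (1.04% of the genes tested, by limma's moderated test with phase as a covariate and Benjamini-Hochberg adjustment over all genes). They were Lcn2, Il1r1, Ly6a, Lrg1, Osmr, Ptgs2, Tgm2 and Ch25h. No gene passed in the other direction. Without adjustment 46 genes had a p under 0.05 (5.98%), 25 of them higher (3.25%) and 21 lower (2.73%) in tumor-bearing mice. The median log2 FC over all genes was -0.01, a value that quantile normalization holds near 0, so that a shift of the whole panel cannot be seen in these data. Every tumor-bearing mouse was above every vehicle injected mouse for 1 gene, Lcn2 (0.13% of genes), and every tumor-bearing mouse was below for 0 genes (0%). Within each phase taken alone, the groups were apart in the same direction for 4 genes, Lcn2, Lrg1, Osmr and Ptgs2, all higher in tumor-bearing mice (0.52%), and for 0 genes in the other direction (0%).

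**Figure D1:**
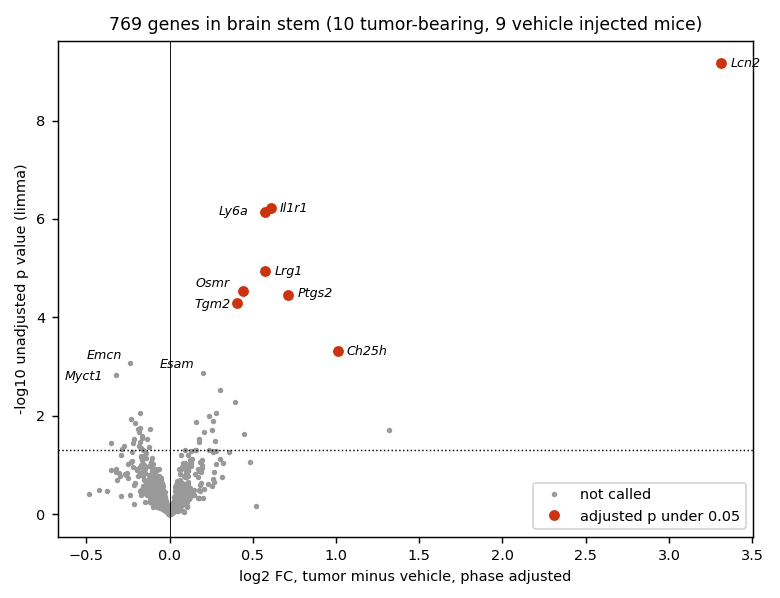
Each point is 1 of 769 genes in brain stem, with the phase adjusted log2 FC of tumor-bearing against vehicle injected mice on the horizontal axis and -log10 of the unadjusted limma p value on the vertical axis. The 8 red genes had an adjusted p under 0.05 and all lie to the right of 0, Lcn2 at 3.31, and the dotted line marks an unadjusted p of 0.05.

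**Figure D2:**
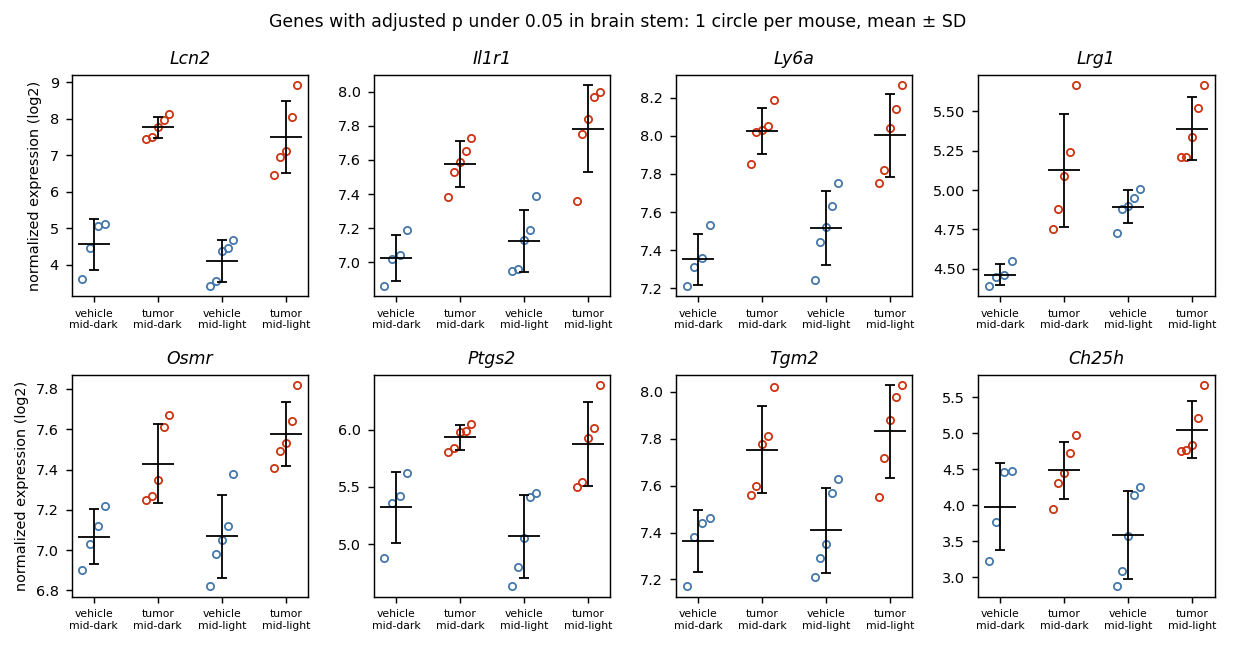
Normalized log2 expression of the 8 genes in each brain stem sample, with 1 circle per mouse, red for tumor-bearing and blue for vehicle injected mice, and the mean ± SD of each group. Vertical axes differ between genes and do not start at 0. Lcn2 is the gene in which no tumor-bearing mouse reaches the vehicle range, whereas for Ch25h at mid-dark the groups overlap.

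A pair of secreted acute-phase proteins led the list of that name. Lcn2 encodes lipocalin 2, which binds bacterial siderophores and is released by vessel and glial cells in inflammation. It ran from 6.45 to 8.94 in tumor-bearing mice (median 7.64) and from 3.41 to 5.12 in vehicle injected mice (median 4.45). The lowest tumor-bearing mouse was mouse 29 at mid-light and the highest mouse 9 at mid-light, so the mice of that phase covered the whole tumor-bearing range, while the 5 at mid-dark lay between 7.45 and 8.13. The log2 FC was 3.31 (SE 0.29, adjusted p = 5.26e-07), a 9.95-fold higher level with a 95% confidence interval of 6.56 to 15.1. The vehicle values, up to 5.12, hardly exceed those of the Y-linked probes, so the fold was taken against a level near that of probes whose own target is absent. Lrg1, a secreted leucine-rich glycoprotein of the acute phase, had a median of 5.23 in tumor-bearing mice (4.75 to 5.67) and 4.73 in vehicle injected mice (4.39 to 5.01). Its 4 vehicle injected mice at mid-dark read 4.39 to 4.55, below the 5 at mid-light, at 4.73 to 5.01, and in each phase the tumor-bearing mice were above. This is a log2 FC of 0.58 (SE 0.10, adjusted p = 0.0022). The vehicle values of Lrg1 lie within the range of the Y-linked gene Uty, as do the lower tumor-bearing values. The other 8 genes of the acute-phase list did not pass. Cp, the copper-binding ferroxidase ceruloplasmin, had a log2 FC of 0.39 (adjusted p = 0.316), Serpina3n 0.09 and the complement protein gene C3 0.00. The median of the 10 genes was 0.14, against -0.01 over all genes tested.

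Cytokine receptors were the next group. Il1r1 encodes the signalling receptor for interleukin-1 alpha and beta. It had a median of 7.69 in tumor-bearing mice (7.36 to 8.00) and 7.04 in vehicle injected mice (6.86 to 7.39). Only mouse 5, the lowest tumor-bearing mouse, and mouse 3 read under mouse 2, the highest vehicle injected mouse. Its log2 FC was 0.61 (SE 0.08, adjusted p = 1.84e-04), a 1.52-fold difference. None of the other 14 genes of the interleukin-1 list passed. The ligand gene Il1a had a log2 FC of -0.35 (adjusted p = 0.739), Il1b 0.03, the decoy receptor Il1r2 0.20, the co-receptor Il1rap 0.02 and the receptor antagonist Il1rn -0.16. The median of the list was 0.02. Osmr encodes the receptor subunit that binds oncostatin M together with gp130. It ran from 7.25 to 7.82 in tumor-bearing mice (median 7.51) and from 6.82 to 7.38 in vehicle injected mice (median 7.05). Mouse 10 at mid-light was the vehicle injected mouse that reached the tumor-bearing range. This gave a log2 FC of 0.44 (SE 0.08, adjusted p = 0.0044). Of the interleukin-6 type list 4 genes are on the panel. Besides Osmr these are Socs3, the feedback inhibitor that such receptors induce, with 0.08, the cytokine gene Clcf1 with 0.08 and the interleukin-6 receptor gene Il6ra with 0.05, none of which passed, and the genes for oncostatin M, interleukin-6 and gp130 are not among the panel's genes.

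A pair of enzymes that make lipid mediators also passed. Ptgs2 encodes cyclooxygenase 2, the inducible enzyme of prostaglandin synthesis. It had a median of 5.95 in tumor-bearing mice (5.50 to 6.39) and 5.36 in vehicle injected mice (4.63 to 5.62). At mid-dark the lowest tumor-bearing mouse was at 5.80 and the highest vehicle injected mouse at 5.62, and at mid-light these were at 5.50 and 5.45. Its log2 FC was 0.71 (SE 0.13, adjusted p = 0.0046), a 1.64-fold difference. Ch25h encodes cholesterol 25-hydroxylase, which makes the oxysterol 25-hydroxycholesterol. At mid-light the 5 tumor-bearing mice read 4.75 to 5.67 and the 5 vehicle injected mice 2.87 to 4.25. At mid-dark the groups overlapped, at 3.95 to 4.98 and 3.23 to 4.47. The phase adjusted log2 FC was 1.01 (SE 0.24, adjusted p = 0.0465), the value closest to the threshold among the 8. When single mice were left out, the adjusted p of Ch25h ran from 0.0165 to 0.11, and it was over 0.05 in 14 of the 19 cases, without mouse 1, 2, 3, 4, 5, 9, 10, 11, 12, 13, 19, 22, 29 or 30. The vehicle values of Ch25h, 2.87 to 4.47, do not exceed those of the Y-linked probes. Nor do the tumor-bearing values at mid-dark, 3.95 to 4.98, while those at mid-light, 4.75 to 5.67, exceed them only in part. The other 6 genes of the oxysterol and prostaglandin list did not pass. The prostaglandin receptor gene Ptger3 had a log2 FC of -0.27 (adjusted p = 0.787), the oxysterol receptor gene Gpr183 -0.13, and the list's median was 0.00.

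Ly6a and Tgm2 complete the 8. Ly6a encodes Sca-1, a lipid-anchored surface protein that mouse brain endothelium carries and that interferons raise. It ran from 7.75 to 8.27 in tumor-bearing mice (median 8.03) and from 7.21 to 7.75 in vehicle injected mice (median 7.44), and the groups met at a single value shared by mouse 1 and mouse 2, both at mid-light. The log2 FC was 0.58 (SE 0.08, adjusted p = 1.84e-04). Tgm2 encodes transglutaminase 2, which crosslinks proteins and is present in endothelium and astrocytes. It ran from 7.55 to 8.03 in tumor-bearing mice (median 7.80) and from 7.17 to 7.63 in vehicle injected mice (median 7.38). The log2 FC was 0.41 (SE 0.08, adjusted p = 0.0056), the smallest of the 8.

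An exact permutation test of each gene alone, two-sided with tumor status permuted within phase over 31752 assignments, gave p = 3.15e-05 for Lcn2 and Ptgs2, the smallest that these assignments allow. It gave exact p values of 6.30e-05 for Il1r1, Ly6a and Lrg1, 9.45e-05 for Osmr, 0.000252 for Tgm2 and 0.000945 for Ch25h, none of them adjusted. The permutation was run only for these 8 genes, which were picked on the same samples. Its small p values are therefore no separate support for them. Leaving out each mouse in turn lost no call among the genes other than Ch25h, and none of the 8 genes changed direction in any alternative run.

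To show the sequence in front of these genes, promoters were read from the RefSeq promoter table of build GRCm38.p6, the genome of a C57BL/6J mouse and not of Balb/C. Of the 8 genes, 6 had an entry there, with 7 start sites, since Il1r1 has 2. The 250 bases before each start were searched on both strands for GGNNTTTCC (an NF-kB type motif), TTCNNNGAA (STAT type) and TTGCNNAA (C/EBP type, the family of factors that acts on many acute-phase genes). The first was in 0 of the 7 windows, against 4.93% of all 32851 promoters of the table. The second was in 0 of 7, against 7.02%. The third was in 4 of 7, against 9.56% of all promoters and 8.62% of the 800 promoters of panel genes. These matches are letters in a window and no evidence that a factor binds there. The 4 windows that hold the third motif are shown because they share it, 5′ to 3′ on the strand of the gene, with the match in capitals. They are Lcn2 (chr2:32387740-32387989, minus strand), Ptgs2 (chr1:150099781-150100030, plus strand), Ch25h (chr19:34475149-34475398, minus strand) and the upstream start of Il1r1 (chr1:40224830-40225079, plus strand).
Lcn2: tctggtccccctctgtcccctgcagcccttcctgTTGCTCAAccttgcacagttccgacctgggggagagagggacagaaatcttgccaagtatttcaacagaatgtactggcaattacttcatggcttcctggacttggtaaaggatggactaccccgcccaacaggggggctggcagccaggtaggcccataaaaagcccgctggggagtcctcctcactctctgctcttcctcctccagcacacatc
Ptgs2: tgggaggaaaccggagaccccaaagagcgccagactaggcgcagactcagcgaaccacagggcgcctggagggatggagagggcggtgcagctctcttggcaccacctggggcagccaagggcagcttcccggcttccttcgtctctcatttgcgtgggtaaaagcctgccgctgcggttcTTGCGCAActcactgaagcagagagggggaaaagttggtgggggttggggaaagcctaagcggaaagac
Ch25h: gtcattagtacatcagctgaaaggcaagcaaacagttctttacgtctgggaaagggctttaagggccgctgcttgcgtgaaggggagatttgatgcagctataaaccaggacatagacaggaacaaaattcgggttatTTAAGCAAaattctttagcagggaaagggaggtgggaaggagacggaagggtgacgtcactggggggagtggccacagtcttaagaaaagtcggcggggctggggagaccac
Il1r1: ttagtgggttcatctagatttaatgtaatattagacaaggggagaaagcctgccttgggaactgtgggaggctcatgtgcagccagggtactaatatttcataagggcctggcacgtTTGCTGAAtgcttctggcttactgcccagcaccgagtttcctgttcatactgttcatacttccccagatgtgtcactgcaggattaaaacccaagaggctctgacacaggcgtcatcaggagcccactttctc
The match began 216 bases before the start in Lcn2, 69 in Ptgs2, 112 in Ch25h and 133 in Il1r1. The Lcn2 and Ptgs2 windows carry TTGCTCAA and TTGCGCAA, and those of Ch25h and Il1r1 carry TTAAGCAA, the motif read on the other strand, and TTGCTGAA.

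The 12 genes that followed by p value were not called, and their log2 FCs are given as values. They include 4 genes of the endothelial marker list, in both directions. Emcn, the endothelial sialomucin endomucin, had a median of 7.89 in tumor-bearing mice (7.63 to 8.07) and 8.15 in vehicle injected mice (7.94 to 8.30), a log2 FC of -0.24 (adjusted p = 0.0729). Esam, an endothelial adhesion molecule, had 0.20 and Myct1, an endothelial gene, -0.32 (adjusted p = 0.103 each). Tmem204 had -0.23 and S1pr3, a receptor for sphingosine 1-phosphate, -0.21 (adjusted p = 0.523 and 0.542). Ifitm3 and Ifitm2, interferon-induced membrane proteins that block virus entry, had 0.30 and 0.24 (adjusted p = 0.193 and 0.499). The remainder were Cp, Ugt8a, which makes the galactolipids of myelin, with -0.18, Il2rg, the common cytokine receptor gamma chain, with 0.28, Tlr7, a sensor of single-stranded RNA, with 0.26, and Dab2, an endocytic adaptor, with 0.16. Leaving out 1 mouse brought a single further gene under an adjusted p of 0.05 in 6 of 19 cases. These were Emcn without mouse 1 or mouse 4, Il2rg without mouse 12, Ifitm3 without mouse 13, Esam without mouse 23 and Myct1 without mouse 29.

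Among markers of endothelium, 14 of the 17 listed genes are on the panel, and 1 rose, Ly6a. Without adjustment 3 had a p under 0.05 upward, Ly6a, Esam and the glucose transporter gene Slc2a1 (0.18), and 3 downward, Emcn, Myct1 and Tmem204, which is 21.4% of the list each way against 3.25% and 2.73% of all genes. The pan-endothelial genes Pecam1 and Cldn5 had log2 FCs of 0.10 and -0.16 and the median of the 14 was -0.07. Their summed level was 12.65 to 12.78 in tumor-bearing mice and 12.63 to 12.76 in vehicle injected mice on the log2 scale, and none of the 14 genes was at the lowest value of the table in any mouse.

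The other cell type lists held no called gene. Sums are of linear values, given as log2, so the most abundant markers weigh most in them. For 15 microglia markers the sum was 13.68 to 14.14 in tumor-bearing and 13.75 to 14.00 in vehicle injected mice. Their median log2 FC was -0.01, with C1qb at 0.13 and Fcrls at -0.15. For 12 astrocyte markers the sums were 15.38 to 15.68 and at most 15.54, with Agt, the angiotensinogen gene, at 0.19 and Sox9 at -0.12. For 24 oligodendrocyte markers they were 16.52 to 16.78 and 16.62 to 16.79. A further marker of this list read 15.36, the highest value of the data, in every brain stem sample. It was not tested and is not in these sums. Of the 24, 2 had an unadjusted p under 0.05 downward, Ugt8a and the connexin gene Gjb1 (-0.16), 8.33% of the list against 2.73% of all genes. For 21 neuron markers the sums were 15.90 to 16.08 and 15.89 to 16.08. Choroid plexus varied between mice of both groups, as the transthyretin gene Ttr ran from 6.78 to 13.77 in tumor-bearing and from 6.49 to 13.77 in vehicle injected mice, and how much choroid plexus each dissection held was not tested.

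Many markers of leukocytes, here with mast cells and macrophages, read low. The mean log2 level was under 5 for 8 of 9 T cell, all 8 B cell and all 12 NK and cytotoxic markers. It was under 5 for 4 of 6 neutrophil, 3 of 5 mast cell and 3 of 7 macrophage markers. At such levels similar sums cannot show whether these cells changed in number. The sums were 7.66 to 8.14 and 7.67 to 8.12 for 6 neutrophil markers in tumor-bearing and vehicle injected mice, 7.19 to 7.76 and 7.23 to 7.59 for 9 T cell markers, 6.59 to 7.37 and 6.90 to 7.37 for 8 B cell markers, 7.27 to 7.71 and 7.27 to 7.61 for 12 NK and cytotoxic markers, 7.66 to 8.86 and 7.64 to 8.49 for 5 mast cell markers, and 7.70 to 8.21 and 7.72 to 8.21 for 7 markers of perivascular and other macrophages. None of these genes passed. Without adjustment 1 gene of some lists had a p under 0.05 upward, against 3.25% of all genes. These were Ceacam3 (16.7% of the neutrophil list), Cpa3 (20% of mast cell), Ms4a4a (14.3% of macrophage) and Kir3dl1 (8.33% of NK and cytotoxic markers). No T or B cell marker had such a p, and no gene of these lists had one downward. The neutrophil gene Ceacam3 had a log2 FC of 0.45 (adjusted p = 0.657) and Ly6g, which defines mouse neutrophils, 0.25 (adjusted p = 0.977). Fpr1 of the same list had -0.22 (adjusted p = 0.9005). Of these 6 genes 3 were above 0, and their median was -0.02. The largest log2 FC outside the 8 was that of the NK receptor gene Kir3dl1, 1.32 (adjusted p = 0.606). It came from vehicle injected mice 4, 28 and 2, whose value was the lowest of the table, -0.37, while the other 16 mice lay between 2.59 and 3.71.

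Signalling and stress pathways held no further called gene. All 14 NF-kB genes missed the threshold, with a median of 0.01, Nfkbia, the inhibitor that NF-kB induces, at 0.26 (adjusted p = 0.787) and Nfkb2 at -0.11. Of 19 interferon-induced genes 2 had an unadjusted p under 0.05, Ifitm3 and Ifitm2, both upward (10.5% against 3.25% of all genes), while the chemokine gene Cxcl10 had -0.09 and the transcription factor gene Irf7 0.02. The 14 p53 target and arrest genes had a median of -0.02, and 6 of them were above 0. Among these Cdkn1a, the cell cycle inhibitor p21, had 0.20 (adjusted p = 0.609) and Fas, the death receptor, 0.23 (adjusted p = 0.787). Of 23 death receptor and Bcl2 family genes 2 had an unadjusted p under 0.05 upward, Cflar and Bcl2l1 (8.7% against 3.25% of all genes), and 1 downward, Tradd (4.35% against 2.73%). The 10 complement genes had a median of 0.04, with Serping1, the C1 inhibitor, at 0.30 (adjusted p = 0.894). The 10 genes of disease-associated microglia had a median of -0.04, with Spp1, osteopontin, at -0.18. The chaperone genes Hspb1, Calr and Bag3 had -0.17, -0.12 and -0.06. Among 8 Nrf2 and antioxidant genes Nqo1 had 0.16, and among 9 toll-like receptor genes Tlr7 had 0.26 and Nod1, an intracellular sensor of bacterial cell wall, -0.10.

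**Figure D3:**
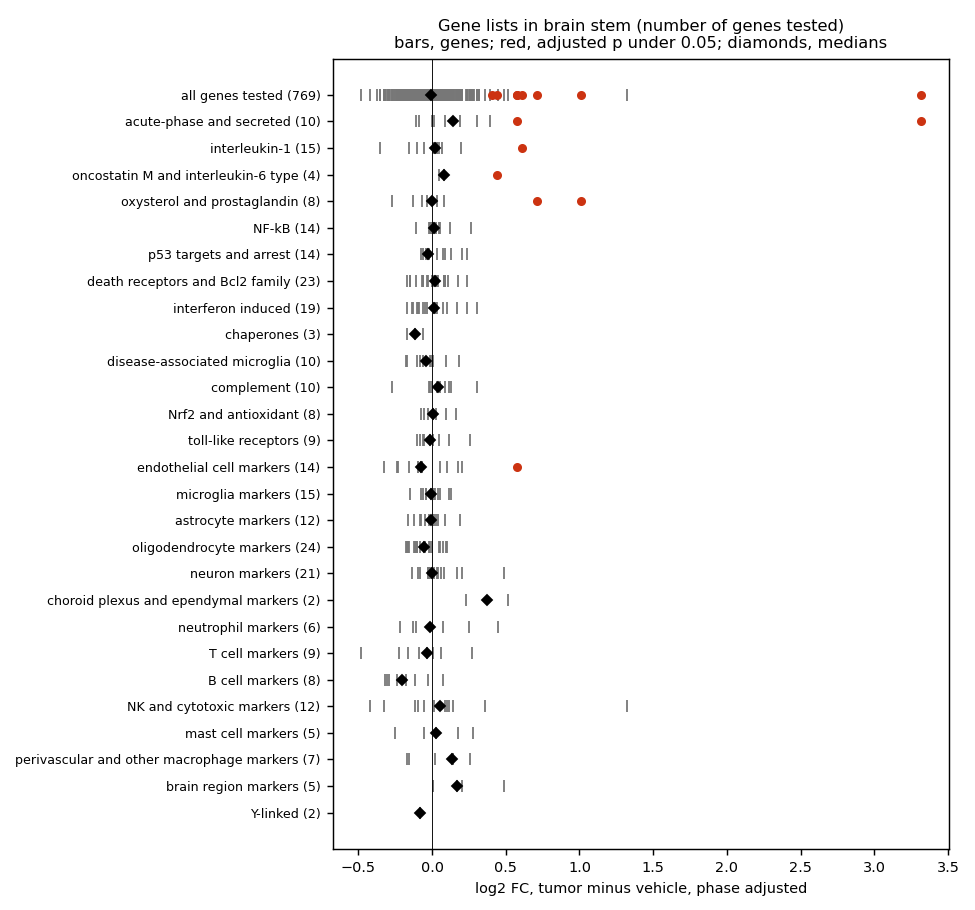
Phase adjusted log2 FC in brain stem of each gene of each list (grey bars), with red circles for genes with an adjusted p under 0.05 and a black diamond for the median, and the number of genes tested beside each name. Medians stay between -0.21 (B cell markers) and 0.37 (choroid plexus and ependymal markers, 2 genes), and called genes are in 5 lists.

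For most genes the data set narrow bounds on the difference in normalized readings. The 95% confidence interval of the log2 FC lay wholly within ± 0.5 for 693 of 769 genes (90.1%), and its half-width had a median of 0.154. Precision depended on level. The median half-width was 0.14 for the 631 genes with a mean log2 level of at least 5 and 0.33 for the 138 below it, where 60.9% of intervals lay within these bounds. The Y-linked gene Uty, without its own target, read up to 5.09 in brain stem. At such levels an interval bounds the reading and not necessarily the RNA.

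The tumor effect was then compared between phases. In a fit with 4 group means, the log2 FC of Lcn2 was 3.21 among mid-dark mice and 3.41 among mid-light mice, and all 8 genes had a log2 FC above 0 in both phases. In this fit 2 genes passed at mid-dark, Lcn2 and Ly6a (0.26% of genes), and 6 at mid-light, Lcn2, Il1r1, Ly6a, Osmr, Ptgs2 and Ch25h (0.78%), and the difference between phases is tested by the interaction. The interaction term, which subtracts the log2 FC of mid-light from that of mid-dark, passed for 0 of 769 genes by limma (28 at an unadjusted p under 0.05, 14 in each direction). Among the 8 genes Ch25h had an interaction of -0.96 (adjusted p = 0.999 by limma), from a log2 FC of 0.50 at mid-dark and 1.46 at mid-light. The gene with the smallest p was Setdb1, a histone H3 methyltransferase, with -0.50 (adjusted p = 0.634). At mid-dark it read 7.53 ± 0.17 with tumors and 7.85 ± 0.11 with vehicle (SD, n = 5 and 4), and at mid-light 7.73 ± 0.11 with tumors and 7.56 ± 0.18 with vehicle (SD, n = 5 each).

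The same mice also gave hippocampus and hypothalamus, and the tumor effect in brain stem was set against each. In hippocampus alone 4 genes passed, Lcn2, Ly6a, Ch25h and Fas (0.521% of genes), and in hypothalamus Lcn2 and Ly6a (0.26%). For 6 of the 8 brain stem genes, all but Il1r1 and Ptgs2, the log2 FC was at least 0.26 in each of the 3 regions, and none of the differences between regions passed for them. Ly6a was close to equal, with 0.58 in brain stem, 0.60 in hippocampus and 0.56 in hypothalamus. Lcn2 had 3.31, 3.74 and 2.62, with brain stem minus hippocampus at -0.43 (95% confidence interval -1.41 to 0.56) and brain stem minus hypothalamus at 0.70 (-0.34 to 1.73).

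The exceptions were Il1r1 and Ptgs2 in hippocampus. Il1r1 in hippocampus ran from 8.59 to 9.73 in 10 tumor-bearing mice (median 9.35) and from 9.01 to 9.51 in 10 vehicle injected mice (median 9.30), so that the group ranges overlapped fully, and its log2 FC there was 0.01 (95% confidence interval -0.24 to 0.26). Ptgs2 in hippocampus ran from 8.95 to 10.05 (median 9.58) and from 9.37 to 10.21 (median 9.68), a log2 FC of -0.08 (-0.36 to 0.21). For both genes every hippocampus sample read above every brain stem sample. In vehicle injected mice the means were 9.30 for Il1r1 and 9.68 for Ptgs2 in hippocampus, against 7.08 and 5.18 in brain stem. Whether the higher level in hippocampus contributes to the smaller log2 FC there was not tested. Brain stem minus hippocampus was 0.60 for Il1r1 (0.29 to 0.91) and 0.79 for Ptgs2 (0.39 to 1.19), with an adjusted p of 0.116 each when samples were taken as independent. Across all genes 0 passed in that fit (10 at an unadjusted p under 0.05). The regions come from the same mice, and with the mouse as a random replicate block both genes passed with an adjusted p of 0.0457 (2 of 768 genes, 0.26%). With paired differences within each mouse Il1r1 passed (adjusted p = 0.0192) and Ptgs2 did not (adjusted p = 0.362). With the block kept and each of 20 mice left out in turn, the adjusted p of Il1r1 ran from 0.0187 to 0.237 and was under 0.05 in 8 cases, and that of Ptgs2 ran from 0.0187 to 0.307 and was under 0.05 in 6. In hypothalamus the log2 FC was 0.40 for Il1r1 and 0.58 for Ptgs2, and brain stem minus hypothalamus was 0.21 (-0.12 to 0.53) and 0.13. Of all 769 genes 0 passed for brain stem minus hypothalamus by limma, with or without the block (12 at an unadjusted p under 0.05 without it), and the smallest p was that of Psmb8, an immunoproteasome subunit, with a difference of -0.27 (adjusted p = 0.998).

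**Figure D4:**
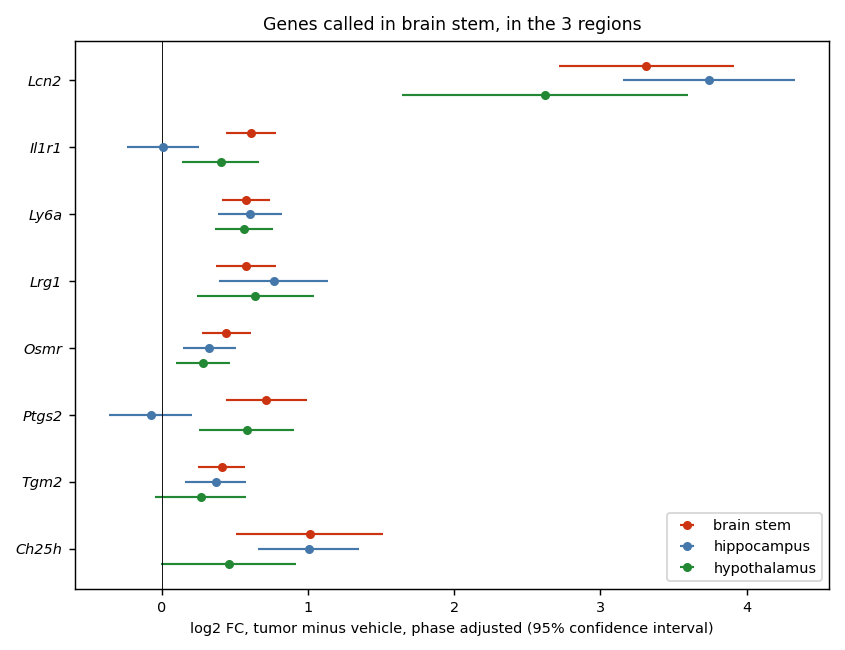
Phase adjusted log2 FC of tumor-bearing against vehicle injected mice for the 8 genes called in brain stem, with 95% confidence intervals, in brain stem (10 and 9 mice), hippocampus (10 and 10) and hypothalamus (10 and 7). Il1r1 and Ptgs2 lie at 0.01 and -0.08 in hippocampus, and the estimates of the other genes lie above 0 in each region.

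The purity of the brain stem RNA was spread more widely among tumor-bearing mice (SD 0.246 of the 260/280 ratio) than among vehicle injected mice (SD 0.0996), and the results are therefore also given by purity. The 260/280 absorbance ratio, which falls with protein or phenol in the RNA, ran from 1.34 to 1.99 in tumor-bearing mice (median 1.88) and from 1.72 to 2.01 in vehicle injected mice (median 1.96). It was under 1.7 in 4 tumor-bearing mice, mice 3, 19, 23 and 29, and in 0 vehicle injected mice. The difference averaged over phases was -0.169 (exact permutation test, two-sided, status permuted within phase, p = 0.0864, adjusted over 3 RNA measures p = 0.13). The 260/230 ratio differed by -0.243 (exact permutation p = 0.057, adjusted p = 0.13) and the concentration by 301 ng/µl (exact permutation p = 0.442). With the 260/280 ratio as a covariate 7 of the 8 genes passed, and Ch25h had a log2 FC of 1.08 with an adjusted p of 0.0746. In the 5 tumor-bearing and 7 vehicle injected mice with a ratio of at least 1.9, Lcn2, Il1r1, Ly6a and Lrg1 passed, with log2 FCs of 3.38, 0.68, 0.60 and 0.49, and the values of Osmr, Ptgs2, Tgm2 and Ch25h were 0.46, 0.81, 0.33 and 1.40 (adjusted p = 0.184, 0.109, 0.377 and 0.145). These mice were unequally spread over phases, with 1 tumor-bearing mouse at mid-dark and 4 at mid-light against 4 and 3 vehicle injected mice, so the tumor-bearing values rest mostly on mid-light, where Ch25h also had the higher log2 FC in all mice. Of the 8 log2 FCs, those of Lrg1 and Tgm2 were lower in these mice than in all mice. With the covariate Ly6a, Lrg1 and Tgm2 were lower than in the main fit, at 0.50, 0.50 and 0.34. Those of Lcn2, Il1r1, Osmr, Ptgs2 and Ch25h were higher with it.

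**Figure D5:**
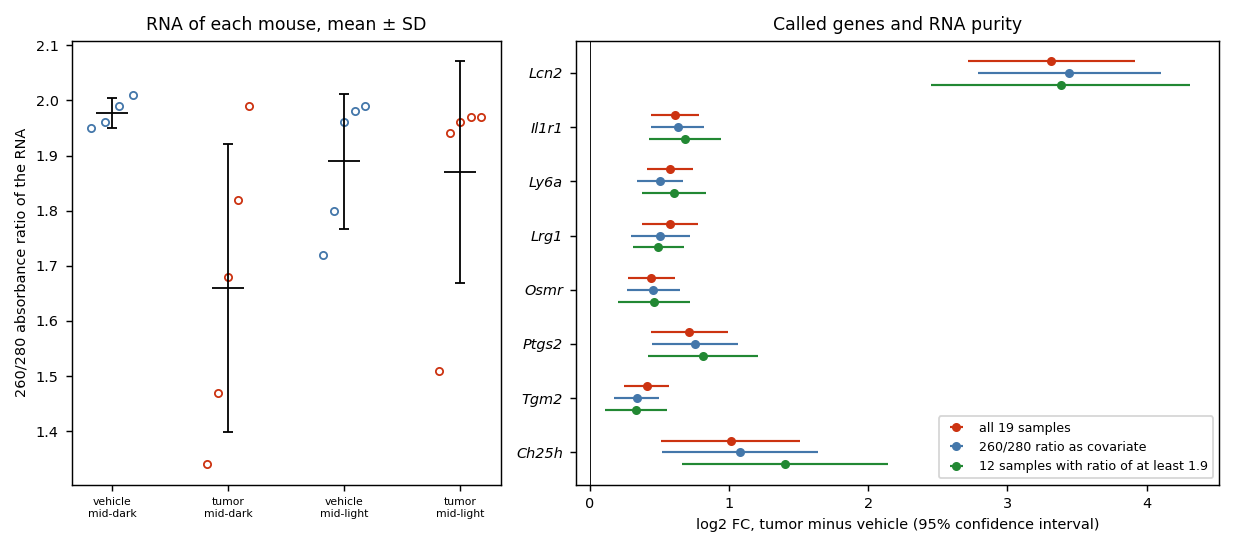
Left, 260/280 absorbance ratio of the brain stem RNA of each mouse with the mean ± SD of each group, where the 4 values under 1.7 are all from tumor-bearing mice. Right, log2 FC of the 8 genes with 95% confidence intervals in all 19 samples, with the ratio as a covariate, and in the 12 samples with a ratio of at least 1.9, where every interval stays above 0.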

How the data were processed

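Brain stem RNA of 19 mice was compared, 10 tumor-bearing and 9 vehicle injected, grouped by the labels. The authors subtracted negative control background and normalized to positive controls and codeset content in nSolver, then quantile normalized in Partek, and the deposited values are log2. These run from -0.372 to 15.36, every sample has the same distribution, and the median is 8.08 to 8.09. Raw counts were not used here, so depth is unknown and precision rests on the number of mice. The main model, with terms for tumor and phase, was fitted with limma 3.58.1 (R 4.3.3). The result for 1 gene is not reported here. Regions were compared in a fit over all 56 samples, without a block and with the mouse as a block, because regions share mice (consensus correlation 0.141). Permutation tests and tables used Python 3.11.15, numpy 2.4.6 and pandas 2.3.3, and figures matplotlib 3.10.9. The fit was tested on simulated data. The rule for naming took genes with an adjusted p under 0.05, the next by p up to 20, and 2 per list. It also took the leading gene of each further comparison. Not every gene that the rule took from a list is printed. Other list members are given as part of a list. The comparison, the lists and the rule were chosen with earlier results of these data known. Of the symbols on the 27 lists, 35 are not on the panel.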

Additional observations from a re-analysis of the deposited data

Results flagged for a closer look

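The tumor effect of Il1r1 differed by 0.60 and that of Ptgs2 by 0.79 on the log2 scale between brain stem and hippocampus, and was flagged because the difference passed adjustment with the mouse as a block. It did not pass without the block, and leaving out 1 mouse ended the blocked call of Il1r1 in 12 and that of Ptgs2 in 14 of 20 cases. Both genes read higher in hippocampus than in brain stem, and whether that level contributes to the difference was not tested.

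Among tumor-bearing mice at mid-light the 260/280 ratio of mouse 29 was 1.51, while the other 4 lay between 1.94 and 1.97. Of 84 groups examined for such a gap, 1 was flagged, and chance flags about 1 in 20. Lcn2 was 6.45 in this mouse, the lowest of the tumor-bearing mice, and without it the log2 FC of Lcn2 was 3.44.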

How the results depend on the processing

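The count of 8 called genes was 7 with ordinary p values, with an adjusted p under 0.01 or with the 260/280 ratio as a covariate, 9 with an adjusted p under 0.1, and 6 with genes of a mean log2 value of at least 5 (Lrg1 and Ch25h were below it) or with all regions in 1 fit (without Lrg1 and Tgm2). It was 8 with a trended or robust prior, no phase term, 4 group means, sample medians or the mean of Gusb, Hprt and Tbp subtracted, or quantile normalization within brain stem. The deposited values were already quantile normalized, so subtracting medians or quantile normalizing again hardly changes them. It was 4 in samples with a 260/280 ratio of at least 1.9, 5 in those of at least 1.7 (an alternative chosen after seeing the data), 3 in mid-dark samples alone (Lcn2, Il1r1 and Ly6a) and 1 in mid-light samples alone (Lcn2), all settings with fewer mice (the fit of 4 group means, over all mice, gave 2 at mid-dark and 6 at mid-light), and 46 at an unadjusted p under 0.05. Leaving out each mouse gave 7 to 9 genes. For brain stem minus hippocampus the count of 0 became 10 at an unadjusted p under 0.05, 2 with the mouse as a replicate block, 1 with paired differences within mice and 0 to 2 with the block and each mouse left out (chosen after seeing the data). For brain stem minus hypothalamus the count stayed 0 with either form of the replicate block and was 12 at an unadjusted p under 0.05, and for the interaction 28. Leaving out each mouse gave 0 in these 3 comparisons without the block. The 260/280 difference ran from -0.21 to -0.124 with each mouse left out, and the exact p fell under 0.05 without mouse 11 (-0.21, exact p = 0.0383). The correlation of deviations of the same mouse ran from -0.387 to 0.656 between brain stem and hippocampus. Without raw counts the limit that depth sets on low genes is unknown.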
